A study of Mus musculus with 8 samples.

Results

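Fatty acid synthesis, desaturation and triglyceride genes were described in MLO-Y4 cells, a mouse osteocyte-like line, after Er:YAG laser irradiation. The group holds 36 genes out of 55359 gene identifiers in the deposited count table. They were listed by known enzymatic or regulatory role, but with earlier results of these data already known. They comprise the enzymes that supply and carboxylate acetyl-CoA, the fatty acid synthase, the desaturases, the elongation enzymes, the acyl-CoA synthetases and the enzymes of glycerolipid assembly. All 36 were found in the table, and 32 passed the filter on low counts and were tested.

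Irradiated cells received an energy fluence of 6 J/cm2 for 1 min from a pulsed infrared laser at 2940 nm, with the emitter 25 cm from the bottom of a 35-mm dish and the medium taken off beforehand. Non-irradiated cells served as the control, and both groups carry the genotype label wild type. Cells of both groups had been plated 72 h earlier and gave total RNA at 6 h, from which poly(A) RNA was sequenced. There were 4 libraries of irradiated cells (called L5 to L8 after the numbers in the table) and 4 of non-irradiated cells (C5 to C8). The labels do not say whether the 4 libraries of a group came from separate cultures, so the p-values reflect spread among these libraries, and that spread may be technical. MLO-Y4 is a clonal line made from long bone of a mouse with a large T antigen transgene, grown here in serum-containing medium on collagen-coated plastic.

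Mammalian cells build palmitate from cytosolic acetyl-CoA, which ATP-citrate lyase makes from citrate exported by mitochondria. Acetyl-CoA carboxylase makes malonyl-CoA, fatty acid synthase joins these units, and elongases and desaturases then lengthen the chain and add double bonds. Acyl-CoA synthetases activate free fatty acids, and acyltransferases, lipins and diacylglycerol acyltransferases assemble them into phospholipid and triglyceride. Transcription factors of the SREBP family, held in the endoplasmic reticulum by INSIG proteins when sterols are plentiful, drive many of these genes together with those of cholesterol synthesis.

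Library totals ran from 43786209 to 51734166 estimated counts. Over all tested genes 1247 were higher and 1023 lower in irradiated cells (edgeR's quasi-likelihood fit, with p adjusted by Benjamini and Hochberg and a threshold of 0.05), and with library totals alone as the scale 1050 were higher and 1345 lower. Of 7 osteocyte markers, Sost, Mepe and Fgf23 were at 0 in every library, while the dendrite gene Pdpn and the connexin gene Gja1 were well expressed and rose. Phex was expressed, but its change was not called (0.097 on the log2 scale, edgeR adjusted p = 0.559). Summed over the list, osteocyte markers reached 1180 to 1280 TPM in irradiated and 960 to 1020 TPM in non-irradiated libraries. TPM is the count per kilobase of exon, scaled to the same total in every library. Pdpn alone averaged 1117 TPM in irradiated and 893 TPM in non-irradiated cells, so these ranges mainly follow that gene. Dmp1 was too low to be tested (means of 0.395 and 0.129 TPM in the same order). Of 9 adipocyte markers 4 (Adipoq, Lep, Cidec and Cfd) were at 0 in every library and Pparg rose. Cebpa, Fabp4 and Retn did not pass the test (log2 fold changes -0.067, -0.59 and 0.33). The adipocyte list summed to 42.8 to 49.9 TPM in irradiated against 38.8 to 48.8 TPM in non-irradiated libraries. Hepatocyte, endothelial and muscle markers summed to at most 0.0527, 0.087 and 0.284 TPM in irradiated libraries and at most 0.394, 0.233 and 0.416 TPM in non-irradiated ones. The osteoblast list (3 of 8 genes higher, Alpl, Runx2 and Col1a2, with Ibsp at 0) summed to 628 to 679 TPM in irradiated against 593 to 643 TPM in non-irradiated libraries. Most of that sum was Col1a1 (means of 579.6 TPM in irradiated and 564.2 TPM in non-irradiated cells), which did not pass (log2 fold change 0.036, edgeR adjusted p = 0.581). Bglap, Bglap2 and Sp7 did not pass either (log2 fold changes 0.27, 0.019 and 0.77). In the same order, the macrophage list (1 of 5 higher, Csf1r, with Ptprc, Adgre1 and Itgam at 0) summed to 23.2 to 25.9 against 18.4 to 22.9 TPM. The chondrocyte list (1 of 3 higher, Sox9, with Acan at 0) summed to 168 to 181 against 109 to 114 TPM. Nearly all of the chondrocyte sum was Sox9 (means of 172.8 and 111.2 TPM), while Col2a1 did not pass (log2 fold change -0.0052). No gene of these marker lists was called lower. The macrophage gene Cd68 was lower in every irradiated library but did not pass (log2 fold change -0.34, edgeR adjusted p = 0.193). The part of the marker shifts in the results that follow was not tested.

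Irradiated cells held less mRNA of some genes of the palmitate, desaturation and palmitate-elongation steps, with Fasn, Scd2, Fads1, Fads2 and Elovl6 all lower by between 1.35-fold and 1.7-fold. Acsl3 and Lpin1 were also lower, by 1.68-fold and 1.52-fold. Against these, Dgat1, which closes triglyceride synthesis, rose 1.65-fold and Acsl4, an arachidonate-preferring acyl-CoA synthetase, rose 1.32-fold. Not all desaturases fell: Scd1, the most abundant member, rose 1.07-fold, a call lost under some alternative settings, and Fads3 did not pass the test. Of the 32 tested members 13 fell, 4 rose and 15 did not pass the test, against 6.75% of all tested genes lower and 8.22% higher (15% in either direction). As shares of the 32, 40.6% were lower and 12.5% higher. Their median log2 fold change was -0.0097 beside -0.0065 over all tested genes, with 16 values negative and 16 positive. Most members that did not pass the test lay above 0. In 10 tested members every irradiated library lay below every non-irradiated one and in 5 every one lay above, against 8.78% and 9.76% of all tested genes. Of the 17 calls 11 were kept under each of the 18 alternative settings (Acly, Fasn, Mid1ip1, Scd2, Fads1, Fads2, Elovl6, Acsl3, Acsl4, Lpin1 and Dgat1), and 6 were lost under at least 1.

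**Figure D1:**
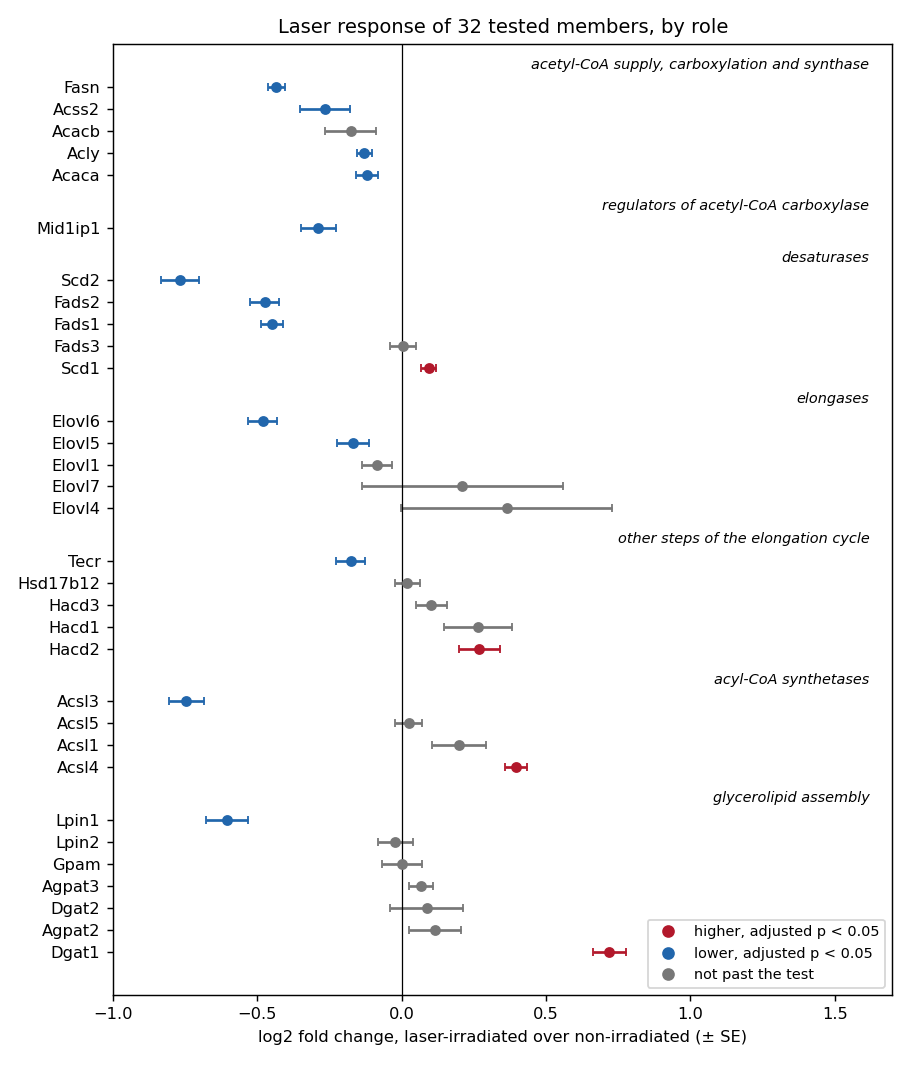
Log2 fold change (x axis, laser-irradiated over non-irradiated) of the 32 tested members, grouped by role, with points for the estimate and bars for the standard error. The falls are largest for Scd2 at -0.77 and Acsl3 at -0.75, and the rise is largest for Dgat1 at 0.72.

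Promoter sequence is shown for 4 members whose mRNA moved in every alternative setting, Fasn, Acsl3 and Fads2 among those that fell and Acsl4 among those that rose, since a shared response raises the question of shared promoter letters. Each is the RefSeq entry of build GRCm38.p6, 250 bases before to 50 bases after the start, read along the gene's own strand, with matches to CCAAT on either strand in capitals. CCAAT is the box bound by NF-Y, a factor known to act beside SREBP.
Fasn (chr11:120824498-120824797, minus strand): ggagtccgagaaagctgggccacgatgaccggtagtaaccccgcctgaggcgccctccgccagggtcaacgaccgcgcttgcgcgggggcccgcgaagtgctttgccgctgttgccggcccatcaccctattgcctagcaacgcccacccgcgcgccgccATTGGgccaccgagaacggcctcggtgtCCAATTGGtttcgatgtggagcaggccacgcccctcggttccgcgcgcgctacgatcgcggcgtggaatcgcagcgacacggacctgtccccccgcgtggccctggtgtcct
Acsl3 (chr1:78657575-78657874, plus strand): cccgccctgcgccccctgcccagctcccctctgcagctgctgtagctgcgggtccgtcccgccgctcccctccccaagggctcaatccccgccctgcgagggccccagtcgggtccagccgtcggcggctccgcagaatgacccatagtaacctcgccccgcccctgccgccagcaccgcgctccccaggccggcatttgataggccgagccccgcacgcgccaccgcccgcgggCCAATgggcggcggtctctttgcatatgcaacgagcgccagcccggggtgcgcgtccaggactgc
Fads2 (chr19:10101454-10101753, minus strand): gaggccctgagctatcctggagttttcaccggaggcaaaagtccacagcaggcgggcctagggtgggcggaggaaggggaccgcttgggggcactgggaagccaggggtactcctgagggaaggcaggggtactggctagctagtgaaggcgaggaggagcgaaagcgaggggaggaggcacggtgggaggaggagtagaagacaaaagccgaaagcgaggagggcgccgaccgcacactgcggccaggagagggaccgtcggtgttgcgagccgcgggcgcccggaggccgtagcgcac
Acsl4 (chrX:142390486-142390785, minus strand): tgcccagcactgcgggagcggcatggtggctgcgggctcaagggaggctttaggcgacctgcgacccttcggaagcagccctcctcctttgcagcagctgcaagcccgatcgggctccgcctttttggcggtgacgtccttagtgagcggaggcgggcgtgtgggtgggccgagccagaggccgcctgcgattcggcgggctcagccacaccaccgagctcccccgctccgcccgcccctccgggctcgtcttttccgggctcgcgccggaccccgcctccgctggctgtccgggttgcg

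Fasn held 3 CCAAT matches, the first bases of which lay 90, 62 and 59 bases upstream of the start, and the nearer pair overlap on opposite strands. Acsl3 held 1 match, 15 bases upstream, and Fads2 and Acsl4 held 0. A promoter was listed for 30 of the 36 members, and CCAAT stood in 16 of those 30, in 6 of the 11 lower members with an entry and in 37.9% of 27025 mouse promoters of the same length. The sterol element TCACNCCAC, searched on both strands, stood in 0 of the 30 and in 1.22% of all promoters. Among 15 sterol synthesis genes with an entry it stood in 1, where CCAAT stood in 13. A lack of matches to this strict pattern therefore does not show a lack of sterol elements. The E-box CACGTG stood in 4 of the 30 and in 7.24% of all, and the GC box GGGCGG, searched on both strands, in 20 of the 30 and in 35.9% of all. These matches describe letters in a short window, where a CCAAT match and a GC box can share bases, and say nothing of which factor binds.

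Per kilobase of exon, the most abundant members in non-irradiated cells were Scd1, Scd2 and Acly, which encode stearoyl-CoA desaturases and ATP-citrate lyase. Scd1 stood at 775.8 ± 21.9 TPM in irradiated and 726 ± 8.13 TPM in non-irradiated cells (SD, n = 4 each). Scd2 stood at 345 ± 25.4 TPM in irradiated and 586 ± 38.8 TPM in non-irradiated cells, and Acly at 472 ± 9.66 TPM in irradiated and 515 ± 14 TPM in non-irradiated cells, so that Scd2 lay above Acly in non-irradiated and below it in irradiated cells. Fasn followed with 155 ± 1.43 and 209.7 ± 6.04 TPM in irradiated and non-irradiated cells. Together these 4 genes made up 56.8% ± 0.213 of the members' summed TPM in irradiated cells and 59.4% ± 0.515 in non-irradiated cells. The summed level of all members was 3034 to 3158 TPM in the irradiated libraries and 3360 to 3510 TPM in the non-irradiated ones, without overlap. Below 8 TPM, Acss2, Dgat2, Acacb and Acsl1 lay between 4.86 and 7.79 TPM in irradiated and between 4.82 and 7.75 TPM in non-irradiated cells, and neighbours in the order such as Acss2 and Dgat2, or Lpin2 and Hacd1, differed by less than their SDs in non-irradiated cells, while Elovl7 and Elovl4 were lowest. Exon lengths come from an older annotation than the authors' build, so levels between genes are approximate.

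**Figure D2:**
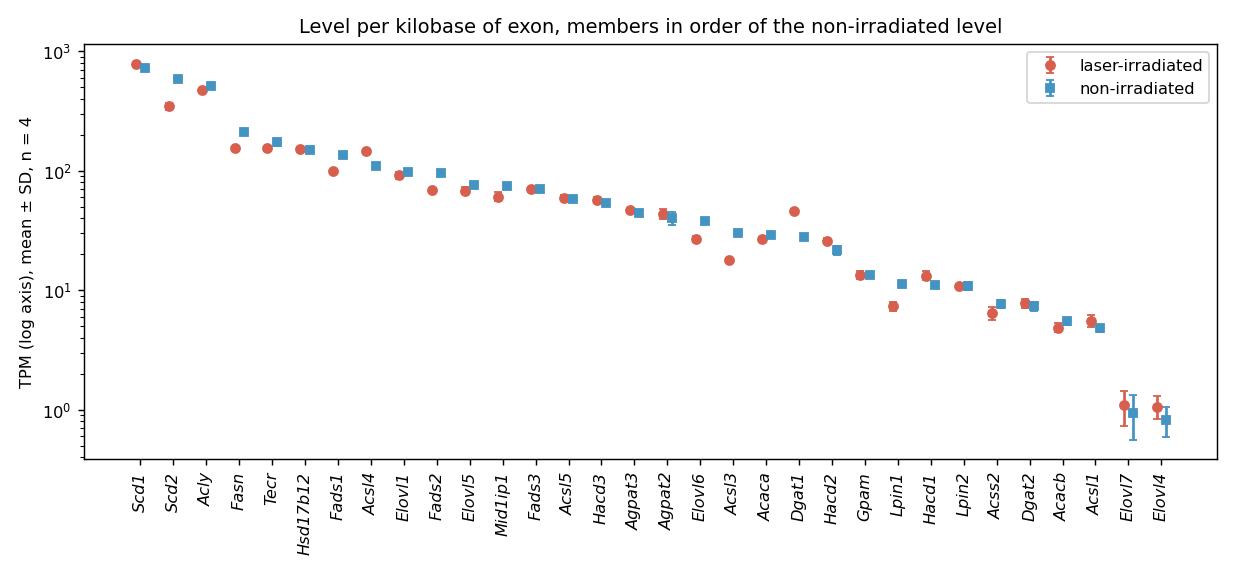
Mean TPM per group (y axis, log scale, bars SD, n = 4) for the 32 tested members along the x axis, in descending order of the non-irradiated level, with circles for laser-irradiated and squares for non-irradiated cells. The level spans from 726 TPM for Scd1 to 0.822 TPM for Elovl4 in non-irradiated cells, and the circles of Scd2, Fads1, Fads2, Elovl6, Acsl3 and Lpin1 sit below their squares while those of Acsl4 and Dgat1 sit above.

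Of the 5 tested genes of acetyl-CoA supply, carboxylation and fatty acid synthase 4 fell, and 2 of these calls, Acss2 and Acaca, were lost under some alternative settings. Fasn (ENSMUSG00000025153.10), whose product is the multifunctional fatty acid synthase, had 504, 509.9, 513 and 514 CPM in irradiated libraries L5 to L8, against 709, 658, 701 and 689 CPM in non-irradiated libraries C5 to C8, CPM being counts scaled to library size. The 4 irradiated values lay within 10 CPM of each other and all below the non-irradiated ones. That is a 1.35-fold fall (log2 fold change -0.43, SE 0.0286, edgeR adjusted p = 2.97e-09). Acly had 748, 727, 750.3 and 760.4 CPM in irradiated libraries against 827, 809.8, 832 and 798 CPM in non-irradiated ones. The groups did not overlap, but the fall was small, at 1.09-fold (log2 fold change -0.13, SE 0.0267, adjusted p = 0.00193).

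Acaca, the gene of the carboxylase that feeds fatty acid synthesis in most cells, had 141, 135, 136 and 135 CPM in irradiated libraries against 153, 156, 144 and 141 CPM in non-irradiated ones. L5 and C8 differed only in the decimals (141.2 against 141.4 CPM), and the fall of 1.09-fold was near the threshold (log2 fold change -0.12, SE 0.0384, adjusted p = 0.0402). It was not called without L6 (adjusted p = 0.104), L7 (0.11), L8 (0.0989), C5 (0.147) or C6 (0.0901). Nor was it called with a block by library number (0.0676) or with no filter beyond 1 count (0.0528). Of Acaca's 50-base words 29.2% also occur in transcripts of Gm5182, which stood at 21.9 ± 2.06 CPM in irradiated and 22.1 ± 2.19 CPM in non-irradiated cells, so reads of the pair can be split between them. Acss2, whose enzyme makes acetyl-CoA from acetate, averaged 19.7 ± 2.39 CPM in irradiated and 23.6 ± 2 CPM in non-irradiated cells with overlapping groups (log2 fold change -0.27, adjusted p = 0.0459). Its call was lost without L6 (0.0926), L7 (0.15), L8 (0.151), C5 (0.0726), C7 (0.158) or C8 (0.128), and with a block by library number (0.0915). Acss2 overlaps Gss on the opposite strand, and whether counting used strand is not given in the sources used here. Acacb, the carboxylase at the mitochondrial surface that restrains fatty acid oxidation, averaged 14 ± 1.14 CPM in irradiated and 15.9 ± 1.02 CPM in non-irradiated cells and missed the threshold (log2 fold change -0.18, SE 0.088, adjusted p = 0.202).

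Mid1ip1, also called S14R or MIG12, encodes a protein that promotes polymerization of acetyl-CoA carboxylase. It had 38.3, 38.0, 35.2 and 43.4 CPM in irradiated libraries against 47.4, 48.0, 46.2 and 48.0 CPM in non-irradiated ones. The groups did not overlap and L8 came nearest to the non-irradiated values (1.22-fold lower, log2 fold change -0.29, SE 0.0605, adjusted p = 0.00221). Its relative Thrsp, abundant in lipogenic tissues such as liver and fat, had 0 counts in all 8 libraries, so that a level of at most 0.0685 CPM is allowed (3 counts in the shallowest library, counting error only).

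Among the desaturases the stearoyl-CoA desaturase paralogs moved in opposite directions. Scd2 (ENSMUSG00000025203.7) had 549.9, 628, 546 and 535 CPM in irradiated libraries against 1029, 869.9, 989 and 958 CPM in non-irradiated ones. Every irradiated library was below every non-irradiated one, L6 being the highest of its group and C6 the lowest of its own. The fall was 1.7-fold (log2 fold change -0.77, SE 0.0653, adjusted p = 7.28e-05). Scd1 had 1119.9, 1186, 1134 and 1111 CPM in irradiated libraries against 1074, 1048, 1077 and 1069 CPM in non-irradiated ones. These groups did not overlap either, with the irradiated libraries above, but the rise was 1.07-fold (log2 fold change 0.093, SE 0.0268, adjusted p = 0.0229). The Scd1 call was lost without L6 (adjusted p = 0.062), with library totals alone as the scale (0.0936) or with a block by library number (0.0748).

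As a share of the TPM of both paralogs, Scd2 held 30.5%, 32.2%, 30.1% and 30.1% in irradiated libraries against 46.2%, 42.6%, 45.1% and 44.5% in non-irradiated ones. The log2 ratio of Scd2 to Scd1 differed between the groups by -0.86, at the smallest p that an exact two-sided permutation test of 4 against 4 libraries can give (p = 0.0286, adjusted p = 0.0714 over the 10 pairs tested, which does not pass 0.05). The paralogs share few sequences that a read could not tell apart, 2.97% of the 50-base words of Scd1 and 2.66% of those of Scd2.

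Fads1 and Fads2 encode the desaturases that turn dietary essential fatty acids into arachidonate and its relatives. Fads1 had 137, 149, 142 and 141 CPM in irradiated libraries against 201, 183, 203 and 192 CPM in non-irradiated ones. Fads2 had 67.5, 69.8, 67.3 and 66.4 CPM in irradiated libraries against 96.8, 84.8, 96.9 and 98.3 CPM in non-irradiated ones. In both genes L6 was the highest irradiated library and C6 the lowest non-irradiated one, and the groups stayed apart. Fads1 was 1.37-fold lower (log2 fold change -0.45, SE 0.0393, adjusted p = 1.07e-07) and Fads2 was 1.39-fold lower (log2 fold change -0.48, SE 0.0486, adjusted p = 8.84e-07). Their ratio to each other differed by -0.023 on the log2 scale between irradiated and non-irradiated libraries (exact permutation p = 0.6, adjusted p = 0.667). Fads3, a relative that desaturates sphingoid bases, averaged 79.5 ± 3.38 CPM in irradiated and 79.3 ± 2.4 CPM in non-irradiated cells (a log2 difference of 0.0037, SE 0.0444, adjusted p = 0.974), and its sign turned with the scaling (-0.019 with library totals alone).

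**Figure D3:**
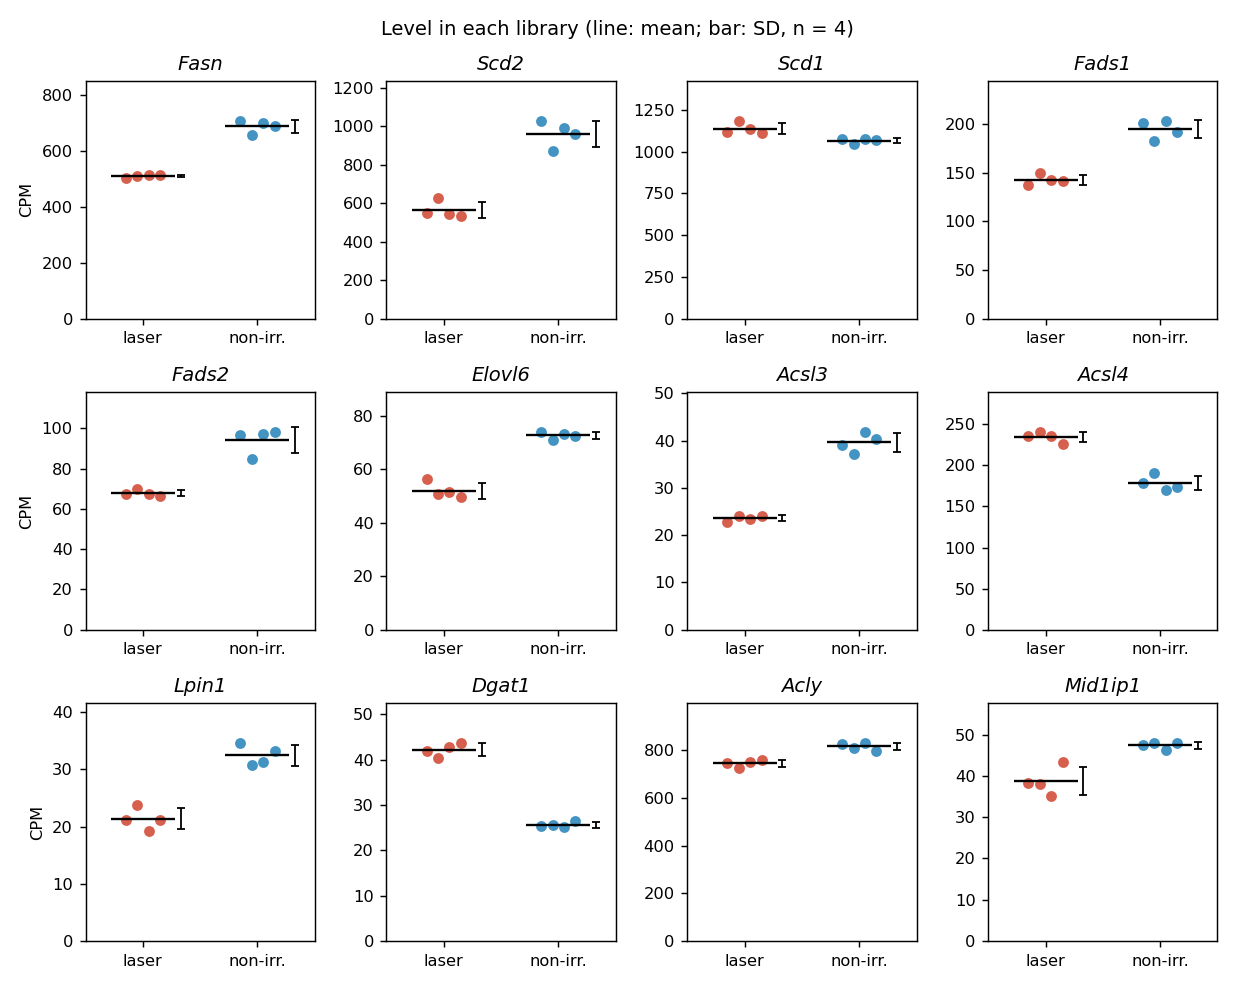
CPM (y axes, from 0) of 12 members in each library, laser-irradiated on the left and non-irradiated on the right of each panel, with the mean as a line and the SD as a bar (n = 4). In all 12 panels the groups do not overlap, with Scd1, Acsl4 and Dgat1 higher in irradiated cells and the other genes lower.

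Elongases lengthen acyl chains, each with its own preferred substrates, and 5 of 7 were expressed enough to test. Elovl6, which extends palmitate to stearate, had 56.4, 50.7, 51.7 and 49.6 CPM in irradiated libraries against 74.1, 71.1, 73.2 and 72.7 CPM in non-irradiated ones. The non-irradiated values lay close together and far above all irradiated ones (1.4-fold lower, log2 fold change -0.48, SE 0.0493, adjusted p = 8.79e-07). Elovl5, which extends polyunsaturated chains, averaged 71.9 ± 5.4 CPM in irradiated and 80.9 ± 4.8 CPM in non-irradiated cells, with overlap between the groups (log2 fold change -0.17, adjusted p = 0.0453). Its call was lost without L5 (0.163), L7 (0.152), L8 (0.0844), C5 (0.117), C7 (0.0959) or C8 (0.158), and with a block by library number (0.0963). The ratio of Elovl6 to Elovl5 differed by -0.31 on the log2 scale (exact permutation p = 0.0571, adjusted p = 0.114).

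Elovl1, an elongase of saturated very long chains, averaged 74.6 ± 4.59 CPM in irradiated and 79.1 ± 3.58 CPM in non-irradiated cells and did not pass the test (adjusted p = 0.291). Elovl4 and Elovl7 were near the filter, at 0.966 ± 0.206 and 1.31 ± 0.433 CPM in irradiated and 0.748 ± 0.218 and 1.13 ± 0.474 CPM in non-irradiated cells (log2 fold changes 0.36 with SE 0.366 and 0.21 with SE 0.348). Elovl2, which elongates docosapentaenoate, had 0 counts in all 8 libraries. Elovl3, a gene of brown fat and skin, had 4 counts in 1 irradiated library and 4 and 12 counts in 2 non-irradiated ones.

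The enzymes that complete each round of elongation changed little. Tecr, the reductase of the last step, averaged 101 ± 4.75 CPM in irradiated and 114 ± 8.78 CPM in non-irradiated cells, with overlap (log2 fold change -0.18, SE 0.051, adjusted p = 0.0236). It lost its call without L5 (0.0973), L7 (0.0511), L8 (0.0588), C7 (0.106) or C8 (0.0873). Hacd2, a dehydratase, rose to 29.2 ± 1.5 CPM in irradiated cells, against 24.2 ± 2.04 CPM in non-irradiated cells, without overlap (log2 fold change 0.27, SE 0.0716, adjusted p = 0.0144), and lost its call without C7 (0.0599). Its relatives Hacd1 and Hacd3 gave log2 fold changes of 0.26 and 0.1 and did not pass (adjusted p = 0.146 and 0.225). For Hacd1 the groups did not overlap, and 26.9% of its 50-base words occur in transcripts of other genes. Hsd17b12, the ketoreductase of elongation, averaged 109 ± 5.23 CPM in irradiated and 107 ± 3.78 CPM in non-irradiated cells (adjusted p = 0.828).

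Acyl-CoA synthetases split into a member that fell, a member that rose and 2 tested members that did not pass. Acsl3 (ENSMUSG00000032883.16), a synthetase of the endoplasmic reticulum and of growing lipid droplets, had 22.9, 24.1, 23.4 and 24.0 CPM in irradiated libraries against 39.0, 37.3, 41.9 and 40.3 CPM in non-irradiated ones. The gap between the groups, over 13 CPM, was several times the spread within either (1.68-fold lower, log2 fold change -0.75, SE 0.0599, adjusted p = 3.29e-08). Utp14b, a gene that lies within Acsl3 on the same strand and holds 3.59% of its 50-base words, was lower too (log2 fold change -0.59, adjusted p = 0.00197), and how far reads of the pair were shared in counting was not tested. Acsl4, whose enzyme activates arachidonate and supplies the polyunsaturated phospholipids needed for ferroptosis, had 236, 241, 236 and 226 CPM in irradiated libraries against 179, 191, 170.2 and 174 CPM in non-irradiated ones. All irradiated libraries lay above all non-irradiated ones (1.32-fold higher, log2 fold change 0.4, SE 0.0373, adjusted p = 2.95e-07).

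Within the family's summed TPM, Acsl4 held 63.6% ± 0.867 in irradiated and 54.1% ± 2.44 in non-irradiated cells, and Acsl3 held 7.93% ± 0.285 in irradiated and 14.9% ± 0.791 in non-irradiated cells. The log2 ratio of Acsl3 to Acsl4 differed by -1.13 between irradiated and non-irradiated libraries (exact permutation p = 0.0286, the smallest possible, adjusted p = 0.0714). Acsl5, a mitochondrial and microsomal synthetase, averaged 86.6 ± 3.45 CPM in irradiated and 85.1 ± 4.57 CPM in non-irradiated cells (adjusted p = 0.804). Acsl1, the main form of fat, liver and heart, averaged 17.4 ± 2.06 CPM in irradiated and 15.2 ± 1.11 CPM in non-irradiated cells (adjusted p = 0.176). Acsl6, a form of brain, had 0 counts in all 8 libraries.

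In glycerolipid assembly the early acyltransferases did not pass the test, while Lpin1 fell and Dgat1 rose. Gpam, the mitochondrial enzyme that adds the first acyl chain to glycerol phosphate, averaged 26.9 ± 2.03 CPM in irradiated and 26.8 ± 1.3 CPM in non-irradiated cells (a log2 difference of 0.0022, SE 0.0694, adjusted p = 0.99). Agpat2 and Agpat3, which add the next chain, averaged 27.9 ± 2.89 and 109 ± 5.35 CPM in irradiated and 25.8 ± 3.26 and 104 ± 2.65 CPM in non-irradiated cells (adjusted p = 0.461 and 0.317).

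Lpin1 (ENSMUSG00000020593.17) encodes a phosphatidate phosphatase that also acts as a nuclear coregulator. It had 21.1, 23.8, 19.3 and 21.2 CPM in irradiated libraries against 34.6, 30.7, 31.3 and 33.2 CPM in non-irradiated ones. The groups did not overlap (1.52-fold lower, log2 fold change -0.6, SE 0.0721, adjusted p = 6.57e-06). Its paralog Lpin2 averaged 39.5 ± 1.15 CPM in irradiated and 40.1 ± 2.85 CPM in non-irradiated cells (a log2 difference of -0.022, SE 0.0591, adjusted p = 0.868). Lpin1 held 40.6% ± 2.69 of the TPM of the pair in irradiated and 50.6% ± 2.38 in non-irradiated cells (log2 ratio differing by -0.58, exact permutation p = 0.0286, the smallest possible, adjusted p = 0.0714).

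Dgat1 (ENSMUSG00000022555.13), 1 of 2 unrelated enzymes that esterify diacylglycerol to triglyceride, had 41.9, 40.3, 42.7 and 43.7 CPM in irradiated libraries against 25.3, 25.6, 25.0 and 26.5 CPM in non-irradiated ones. The lowest irradiated value exceeded the highest non-irradiated one by a wide margin (1.65-fold higher, log2 fold change 0.72, SE 0.0566, adjusted p = 2.55e-08). Dgat2, the form tied to newly made fatty acids, averaged 7.2 ± 0.58 CPM in irradiated and 6.78 ± 0.644 CPM in non-irradiated cells and missed the threshold (log2 fold change 0.086, SE 0.126, adjusted p = 0.732). Dgat1 held 85.5% ± 0.643 of the pair's TPM in irradiated and 79.2% ± 1.52 in non-irradiated cells, and the log2 ratio of Dgat2 to Dgat1 differed by -0.63 (exact permutation p = 0.0286, the smallest possible, adjusted p = 0.0714). Of the 10 within-step pairs, 4 reached that smallest p and 0 passed after adjustment (Scd2 and Scd1, Acsl3 and Acsl4, Lpin1 and Lpin2, Dgat2 and Dgat1 reached it). With 4 libraries per group a pair could pass only if most of the 10 pairs reached that p. The lack of passing pairs therefore does not show that the genes of a pair responded alike. The 4 pairs not given above, Acly and Acss2, Acaca and Acacb, Agpat2 and Agpat3, and Hacd2 and Hacd3, differed by 0.13, 0.053, 0.047 and 0.17 (exact permutation p = 0.257, 0.543, 0.686 and 0.2).

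Libraries C6 and L6 lay towards the opposite group in many of these genes. C6 was the lowest non-irradiated library in 10 of the 13 members that fell, and L6 was the highest irradiated library in 7 of the 13. Without both libraries 12 members were lower and 3 higher, with Acaca (adjusted p = 0.172) and Scd1 (0.0634) losing their calls and the falls of Scd2, Fads1 and Fads2 at -0.86, -0.5 and -0.53.

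Genes around the pathway moved in part with it. In the citrate and NADPH supply list, whose products bring citrate to the cytosol and reduce NADP, 5 of 7 tested genes fell and 0 rose. That is 71.4% lower, against 6.75% of all tested genes lower and 8.22% higher. Slc25a1, the mitochondrial citrate carrier, was at 106 ± 5.37 CPM in irradiated and 153 ± 8.21 CPM in non-irradiated cells (log2 fold change -0.53, adjusted p = 5.72e-08). Idh1, the cytosolic isocitrate dehydrogenase that yields NADPH, was at 50.6 ± 4.62 CPM in irradiated and 72.3 ± 2.51 CPM in non-irradiated cells (log2 fold change -0.52, adjusted p = 3.37e-06). Named after their values were seen, the other genes that fell were Me1, G6pdx and Pgd, NADPH-yielding enzymes, at -0.17, -0.15 and -0.14. Over the list the median was -0.15 on the log2 scale.

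Sterol synthesis enzymes, known to share SREBP control with many but not all of the members, were lower in 18 of 20 tested genes (90%, against 6.75% of all tested genes). Their median log2 fold change was -0.63. Sqle, the squalene epoxidase gene, averaged 83.2 ± 6.07 CPM in irradiated and 150.1 ± 5.74 CPM in non-irradiated cells (log2 fold change -0.85, adjusted p = 3.75e-10). Whether the sterol and fatty acid lists differ in response was not tested. Of the 7 SREBP factors and regulators 4 fell and 1 rose (57.1% and 14.3%, against 6.75% and 8.22% of all tested genes). Srebf1, the SREBP gene tied mainly to fatty acid synthesis, averaged 181 ± 3.18 CPM in irradiated and 227 ± 7.46 CPM in non-irradiated cells (a log2 difference of -0.32, SE 0.0334, adjusted p = 1.03e-06), and Srebf2, tied mainly to sterols, gave -0.57 (SE 0.033, adjusted p = 5.49e-10). Insig1 had the largest fall of these, at -1.37 (SE 0.067). The remaining calls of that list, named after their values were seen, were Insig2 at -0.19 (adjusted p = 0.0171) and Mbtps2, a protease that releases SREBP, at 0.24 (adjusted p = 0.0248).

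The LXR list, of nuclear receptors that induce lipogenic genes and their targets, had 1 of 8 tested genes higher and 2 lower (median 0.065). These are 12.5% higher and 25% lower, against 8.22% and 6.75% of all tested genes. Lpcat3, which inserts polyunsaturated acyl chains into phospholipid, rose (log2 fold change 0.23, adjusted p = 3.78e-05), and Nr1h2, the gene of the widely expressed LXR, fell (-0.22, adjusted p = 0.0102), a call lost without L7 (0.0507). The other fall was in the retinoid X receptor gene Rxrb, named after its value was seen (-0.2, adjusted p = 0.0292). Nr1h3 averaged 8.6 ± 1.66 CPM in irradiated and 8.18 ± 1.02 CPM in non-irradiated cells (adjusted p = 0.809), Abca1 lay at 0.24 ± 0.198 and 0.225 ± 0.169 CPM in irradiated and non-irradiated cells (adjusted p = 0.948), and Mlxipl, the ChREBP gene, had 0 counts in all libraries. Among 7 tested genes of fatty acid uptake and binding 1 rose, the fatty acid transporter gene Slc27a4 (log2 fold change 0.34, adjusted p = 7.84e-05), 1 fell and 6 had negative values. That is 14.3% higher and 14.3% lower, against 8.22% and 6.75% of all tested genes. The median of that list was -0.53, but -0.058 with a filter of 1 CPM in 4 libraries, and it ran from -0.68 without C5 to -0.12 without C8.

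In the remaining lists the calls were few in number and are read against 15% of all tested genes called. In fatty acid oxidation 21 of 22 values were negative (median -0.1), against 7824 of 15164 over all tested genes. The oxidation genes fell in 2 of 22 (9.09%, against 6.75% of all tested genes) and rose in 0. Those that fell were Cpt1a, which admits acyl chains to mitochondria (-0.28, adjusted p = 0.000386), and Etfb, an electron carrier (-0.19, adjusted p = 0.00606). With library totals alone 7 of them were lower, without L6 or without C6 4 were, and without both 5 were. Lipid droplet genes fell in 2 of 10 and rose in 1, or 30% called (median -0.026). The triglyceride lipase gene Pnpla2 fell (-0.45, adjusted p = 0.000897) and Hilpda, whose product inhibits that lipase, rose (0.32, adjusted p = 0.00472). Plin2, a droplet coat gene, gave -0.15 (adjusted p = 0.0386), lost without L5 (0.126), L7 (0.105), L8 (0.096), C5 (0.111), C7 (0.12) or C8 (0.0721), which leaves 1 gene lower in that list. The Plin2 call was also lost with a block by library number (0.0899).

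Phospholipid synthesis genes fell in 2 of 15 and rose in 1, or 20% called (median -0.07), with Pcyt2, of phosphatidylethanolamine synthesis, at -0.37 (adjusted p = 5.45e-06). Ptdss2, a phosphatidylserine synthase gene, gave -0.22 (adjusted p = 0.0233), lost without L5 (0.0827), L8 (0.0605), C6 (0.0612) or C8 (0.0687), and without both C6 and L6 (0.0683). The riser of that list, Pgs1 of cardiolipin synthesis (0.13, adjusted p = 0.0385), was named after its values were seen, and the count of higher genes there was 0 without L5, L7, L8, C5, C7 or C8. The other glycerolipid enzymes fell in 1 of 7, or 14.3% called (median -0.019), Lclat1, an acyltransferase that also remodels cardiolipin (-0.17, adjusted p = 0.0327), a call lost without L5 (0.0651), L7 (0.0645), L8 (0.119), C5 (0.125), C6 (0.0539) or C8 (0.0522). The lipin gene Lpin3 did not pass there (0.16, adjusted p = 0.162).

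**Figure D4:**
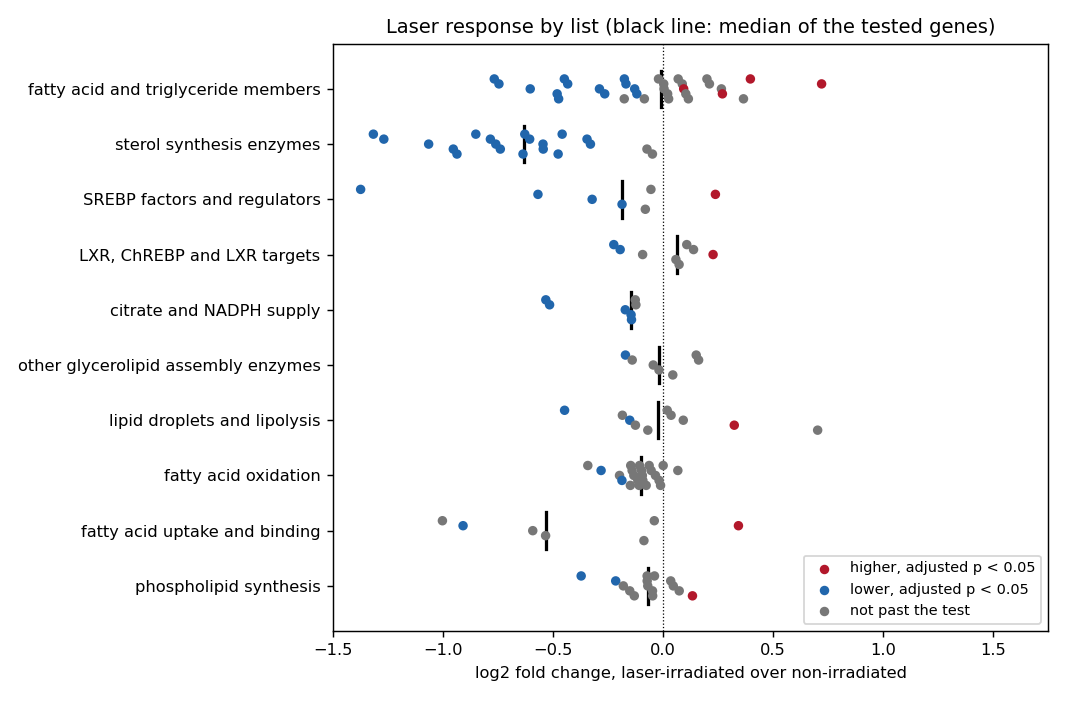
Log2 fold change (x axis, laser-irradiated over non-irradiated) of each tested gene in the fatty acid and triglyceride group and 9 neighbouring lists, with a black line at each list's median. Points of the fatty acid and triglyceride group run from -0.77 to 0.72 around a median of -0.0097, while sterol synthesis enzymes all lie at or below -0.049 with a median of -0.63.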

How the data were processed

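RNA-seq of poly(A) RNA gave 1 gene-level table for 8 libraries. The authors deposited estimated counts per gene as whole numbers without normalization, so rounding was not needed. HISAT2 2.2.1 and StringTie 2.1.7 with build GRCm39 stand in the submitters' processing notes, which also list FastQC 0.11.9, Trimmomatic 0.39 and, for DESeq2, version 1.32.0. The sources used here give no settings, annotation release or strand. Values of 4 are more frequent (6096) than 3 (4006) or 5 (2428), but values of 1 are more frequent still (6623) and 2 occurs 4009 times. Whether a fragment adds about 4 counts was not tested. If it does, limits from a count of 0 may be 4 times too low. Within groups, library pairs differed by 9.22 to 16.4 times the Poisson expectation, and none was treated as a repeat. Columns are numbered 5 to 8 and titles 1 to 4, so columns were tied to groups only.

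Symbols (52083 of 55359 identifiers, 99.64% of counts) and exon lengths came from GENCODE M21, promoters from RefSeq (GRCm38.p6), using the table's first entry of a gene. filterByExpr (minimum count 10), TMM scaling and edgeR 4.0.16 (glmQLFit with robust=TRUE, R 4.3.3) were applied to all libraries, p-values being Benjamini-Hochberg adjusted with a threshold of 0.05. The 15164 tested genes share one fit. CPM uses TMM-scaled totals, and TPM divides counts by exon length and scales each library to one total. SE is the log2 fold change over the square root of F. Pairs of genes were compared by exact two-sided permutation of the 8 libraries (70 arrangements) on log2(CPM + 0.5). On simulated data at these depths 50 of 50 genes changed 2-fold and 47 of 50 changed 1.5-fold upward were recovered among 14878 genes. Downward, 50 of 50 at a fold of 0.5 and 47 of 50 at 0.67 were recovered, with 4 false calls. Smaller changes, the size of many of the members' calls, were not simulated, so their recovery is not known. Alternatives were other scalings, DESeq2 1.42.0, limma-voom 3.58.1, other filters, counts divided by 4, a replicate block and each library left out.

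The members and lists were chosen with earlier results of these data known. All members are accounted for; library values are printed for those called with an absolute log2 fold change of at least 0.3 and for Acly, Acaca, Fasn, Scd1, Scd2, Fads1, Fads2, Elovl6, Mid1ip1 and Thrsp whatever their result, and from each neighbouring list the 2 genes of lowest adjusted p and 9 set genes were chosen, of which some are not reported here.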

Additional observations from a re-analysis of the deposited data

Results flagged for a closer look

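Within a group of 4 libraries, a value far from the other 3 was found in 3 of the 108 groups examined (named genes, each in irradiated and non-irradiated libraries), where chance gives about 1 in 20. Scd2 in L6, at 628 CPM, lay above the other irradiated libraries (535 to 549.9 CPM). Fads2 in C6, at 84.8 CPM, lay below the other non-irradiated libraries (96.8 to 98.3 CPM). Srebf2 in C6, at 237 CPM, lay below the other non-irradiated libraries (254 CPM).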

How the results depend on the processing

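Settings covered other scalings, tools and filters, counts divided by 4, a replicate block and each library left out in turn, plus leaving out C6 and L6 together, which was chosen after seeing the data. Over them the members lower numbered 9 to 13 and those higher 3 or 4. Pair ratios were recomputed only with no prior count and with each library left out, and 0 pairs passed after adjustment there. The few libraries left little room for any pair to pass. The median log2 fold change of the members stood at -0.032 on library totals, at -0.038 with C6 and L6 removed, and between -0.036 and -0.0040 with 1 library left out. Over all genes, leaving out 1 library gave 976 to 1501 higher and 696 to 1172 lower. Signs turned for the values that follow, and the cause was not tested. Fads3 was -0.0057 with upper-quartile factors, -0.019 with library totals and -0.018 to 0.032 with 1 library left out. Gpam was -0.0072, -0.020 and -0.038 to 0.047 in the same order, and -0.00051 with limma-voom. Hsd17b12 was -0.0026 with library totals and -0.00097 to 0.049 with 1 library left out. With 1 library left out Elovl7 ran from -0.037 to 0.43, Acsl5 from -0.0036 to 0.048, Lpin2 from -0.062 to 0.021, Nr1h3 from -0.027 to 0.18 and Abca1 from -0.54 to 0.71, and without C6 and L6 Elovl7 was -0.22 and Lpin2 0.044. With 1 library left out, list medians ran from -0.057 to 0.078 for the LXR list, -0.045 to 0.038 for other glycerolipid enzymes and -0.041 to 0.032 for lipid droplets. The lipid droplet median was 0.019 with no filter beyond 1 count and -0.065 with counts divided by 4, and the LXR median was 0.12 without C6 and L6. With 1 library left out, the log2 ratio of Fads2 to Fads1 ran from -0.042 to 0.0054 and that of Agpat2 to Agpat3 from -0.016 to 0.11. Deviations of same-numbered libraries had correlations of -0.0438 to -0.0038, where the other pairs between groups gave -0.0356 to 0.0472. Whether same-numbered libraries were handled together is not known, and such correlations cannot show that they were not. With the replicate block 3 members were higher and 10 lower, and over all genes 1006 were higher and 751 lower. Depth limits Elovl2, Elovl3, Thrsp and Acsl6, at or near 0 counts.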
